A study of Mus musculus with 6 samples.

Results

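The genes described here were 9 genes that store, take up, export or recycle iron in macrophages: Fth1, Ftl1, Ncoa4, Tfrc, Steap3, Slc11a2, Slc11a1, Slc40a1 and Hp. They were chosen by symbol, and all 9 were found among the 15415 genes listed in the deposited table. Their RNA was measured by sequencing in 6 libraries of peritoneal macrophages (PEMs), the cells washed from the peritoneal cavity of C57BL/6J mice 3 days after an injection of starch. The 3 libraries of the knockout group carried the genotype LysM-Cre; Tim-4 fl/fl and the 3 of the control group the genotype Tim-4 fl/fl, and the study used males in an age range of 6 to 8 weeks. Tim-4, encoded by Timd4, is a receptor for phosphatidylserine on macrophages, and the comparison asked what its loss changes in the RNA of these cells. Both groups carried loxP sites flanking a stretch from intron 1 to intron 3 of Timd4, while Cre, placed at the lysozyme gene Lyz2 and active in cells of the myeloid lineage, was present only in the knockout, so the controls had no Cre. The labels give LPS, a bacterial lipopolysaccharide, as the treatment of all 6 samples, and the methods do not say whether the sequenced cells received it. The labels' genotype entry is reversed against the sample titles, and the titles were used. Nothing in the labels says that the libraries of a group came from separate mice, so the p-values measure the spread between libraries, which may be technical.

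Macrophages that clear old red cells break down haem with haem oxygenase and free its iron. The iron is stored in ferritin, a shell of heavy (Fth1) and light (Ftl1) chains, or leaves the cell through ferroportin (Slc40a1). Iron bound to transferrin enters through the transferrin receptor (Tfrc), is reduced in endosomes by Steap3 and is moved into the cytosol by the divalent metal transporter Slc11a2. In inflammation, macrophages are known to hold back iron by lowering ferroportin.

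Several of these mRNAs are controlled after transcription by iron-responsive elements, hairpins to which iron regulatory proteins bind when iron is scarce. In a 5′ UTR the bound protein blocks translation, and in a 3′ UTR it protects the mRNA from decay, so for the ferritins and ferroportin the RNA level does not by itself give the protein level. The sites are shown because they mark 4 members whose RNA holds the letters of such a hairpin by the strict pattern used here. They were searched in mouse GENCODE M21 transcripts (GRCm38) as a C, a stem arm of 5 bases, the loop CAGTG with any next base, and a second arm of 5 bases, each pairing with its partner in the first (G with T counted as a pair). Each line gives 25 bases, 5′ to 3′, with the 6 loop bases in capitals.
Fth1, 5′ UTR, exon 1 of 4, plus strand, chr19:9982734-9982758: cctgcttcaaCAGTGCttgaacgga
Ftl1, 5′ UTR, exon 1 of 4, minus strand, chr7:45459781-45459805: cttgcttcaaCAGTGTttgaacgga
Slc40a1, 5′ UTR, exon 1 of 8, minus strand, chr1:45925467-45925491: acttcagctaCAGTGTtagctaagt
Tfrc, 3′ UTR, exon 19 of 19, plus strand, chr16:32631221-32631245: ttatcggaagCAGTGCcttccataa
Tfrc, 3′ UTR, exon 19 of 19, plus strand, chr16:32631600-32631624: ttatcgggagCAGTGTcttccataa
Tfrc, 3′ UTR, exon 19 of 19, plus strand, chr16:32631665-32631689: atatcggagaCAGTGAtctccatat
Tfrc, 3′ UTR, exon 19 of 19, plus strand, chr16:32631712-32631736: ttatcgggaaCAGTGTttcccataa

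Fth1, Ftl1 and Slc40a1 each held 1 such site in the 5′ UTR and Tfrc held 4 in the 3′ UTR. The other 5 members held none by this pattern, which does not show that they lack an element of another form. Among 21745 genes with a protein-coding transcript, 28 (0.129%) held a match in a 5′ UTR and 127 (0.584%) in a 3′ UTR. A second motif, the core of the antioxidant response element TGACNNNGC on either strand, was searched in RefSeq promoter windows (GRCm38.p6, 250 bases before to 50 after the start). Windows were found for 6 of the members, and 1 of their 13 windows, at Ncoa4, held the core, against 12.39% of all 32851 windows. A match is a description of letters and not a measured binding site.

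The libraries held between 36170767 and 42217558 reads on listed genes. Timd4 stood at 0.33, 0.39 and 0.25 FPKM (fragments per kilobase of gene, scaled to library size) in knockout libraries 1 to 3 and at 19.5, 12.05 and 1.19 in control libraries 1 to 3, so the groups did not overlap (the gene passed the filter only through the control group), but control library 3 stood far below the other two. The log2 difference of -2.66 did not pass the threshold (adjusted p = 0.0715) and passed it in a paired fit blocked on the replicate number (adjusted p = 0.0436) and without control library 3 (log2 difference -3.63, adjusted p = 0.0004). Lyz2 stood at 41.4, 4656 and 106 FPKM in the knockout and at 7090 to 8482 in the control, so that knockout library 2 stood apart from the other two. Of the macrophage markers, Adgre1 lay between 234.7 and 363.8 FPKM, Itgam between 244.7 and 399.9 and Mertk between 0.82 and 12.1 over all libraries. Cd68 lay between 1572 and 1685 FPKM in the knockout and between 815.5 and 1379 in the control, Csf1r between 83.3 and 143.4 and between 151.5 and 179.6, and Fcgr1 between 36.1 and 57.5 and between 5.16 and 6.58. Of these, Fcgr1 rose (log2 difference 2.82), and Cd68 and Csf1r did not pass the threshold. Gata6, the defining factor of resident large peritoneal macrophages, was between 0.12 and 1.07 FPKM. Of 9030 genes tested, 660 passed an adjusted p below 0.05 in limma (7.31%), 232 higher in the knockout (2.57%) and 428 lower (4.74%). The median log2 difference over all genes was -0.11, and after rescaling by the median of ratios it was 0.01 and the calls split into 343 higher and 326 lower. Changes of the members are therefore also given after rescaling.

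Of the 9 iron handling genes, 1 rose in the knockout macrophages: Steap3, which was 1.93-fold higher (11.1% called, against 7.31% of all genes tested). That call held in 2 of the 6 fits with 1 library left out and was lost without a filter on low genes. None passed the threshold for a decrease. Slc40a1 had the largest difference of the 9, a mean 9.29-fold lower in the knockout, and its adjusted p was 0.0572. The remaining 7 genes, among them both ferritin chains and the transferrin receptor, overlapped between the groups. The groups were apart in 2 of the 9 (22.2%), against 34.1% of all genes.

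**Figure D1:**
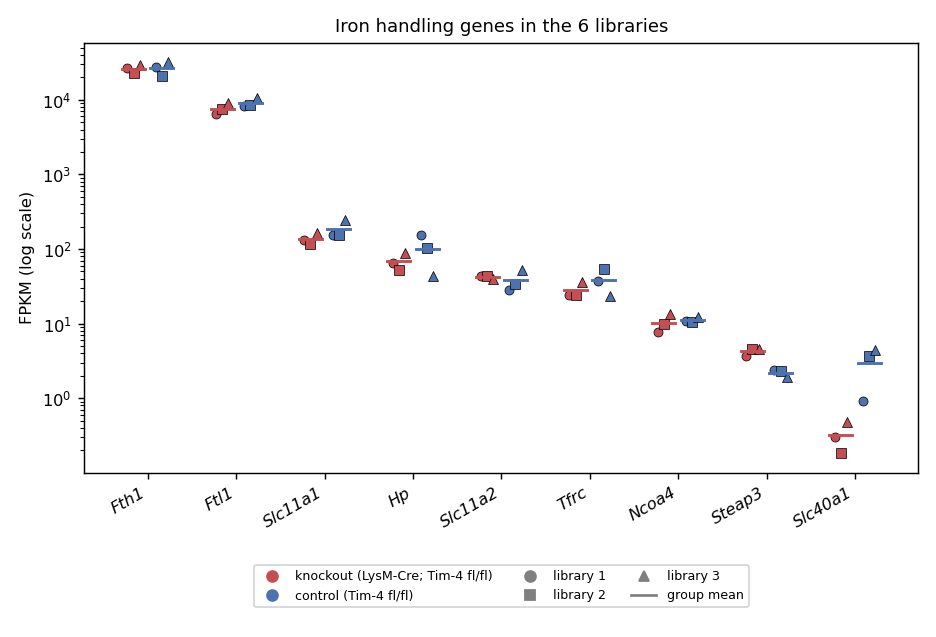
FPKM of the 9 iron handling genes in each library on a log axis, knockout in red and control in blue, with the marker giving the library number and a bar for the group mean. The groups are apart for Steap3 and Slc40a1 and overlap for the other 7, and the means over both groups run from 26554 FPKM for Fth1 to 1.66 for Slc40a1, although in the control the mean of Steap3 (2.20) is below that of Slc40a1 (2.99).

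Fth1, the heavy chain that oxidises iron on its way into the shell, was the most abundant gene of every library. Its level was 26802, 22929 and 28982 FPKM in knockout libraries 1 to 3 and 27733, 20919 and 31960 in control libraries 1 to 3. The control libraries enclosed all 3 knockout libraries. The log2 difference was -0.02 (95% interval -0.47 to 0.43, limma adjusted p = 0.959) and became 0.13 after rescaling, so no direction can be given. Ftl1, the light chain that helps to form the iron core, ranked from 2 to 4 among all genes of a library. It stood at 6397, 7433 and 9039 FPKM in the knockout and at 8179, 8469 and 10550 in the control. The groups overlapped, with a log2 difference of -0.26 (95% interval -0.67 to 0.16, adjusted p = 0.382). This difference was -0.136 without knockout library 1, -0.141 without control library 3 and -0.385 without knockout library 3. Fth1 and Ftl1 together took 2.88% to 3.61% of the reads in the knockout and 2.79% to 4.03% in the control. Both ferritin genes have many processed copies in the mouse genome. The table listed 1 of them, Ftl1-ps2, at 10 to 17 reads per library, and how the authors' counting treated reads from the others is not given in the sources used here, so the ferritin levels are uncertain to that extent.

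The balance of the ferritin chains was compared within each library, as log2(FPKM + 1) of Ftl1 minus that of Fth1. This difference was -1.79 ± 0.24 (SD, n = 3) in the knockout and -1.56 ± 0.23 (SD, n = 3) in the control. The groups overlapped and the difference between them was -0.24 (exact two-sided permutation test, p = 0.4), where 3 against 3 libraries cannot give a p below 0.1. Paired by library number, the knockout was lower in 3 of 3 pairs (exact two-sided sign-flip permutation test, chosen after seeing the data, p = 0.25, the smallest that 3 pairs allow). The difference was -0.098 without knockout library 1 and -0.11 without control library 2.

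Ncoa4, the receptor that carries ferritin to the lysosome to release its iron, was far lower than either ferritin chain. It stood at 7.61, 9.82 and 13.4 FPKM in the knockout and at 10.9, 10.5 and 12.3 in the control. The knockout libraries enclosed the control libraries, and the log2 difference was -0.15 (95% interval -0.62 to 0.32, adjusted p = 0.658).

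Among the genes of uptake, Steap3 separated the groups and the other 3 did not. Steap3, which reduces the iron that transferrin delivers so that it can leave the endosome, stood at 3.63, 4.53 and 4.59 FPKM in the knockout and at 2.39, 2.28 and 1.93 in the control. All knockout libraries lay above all control libraries, from 506 to 635 reads against 232 to 313. The log2 difference was 0.71 (SE 0.135, 95% interval 0.39 to 1.03, adjusted p = 0.0284), 0.82 after rescaling (adjusted p = 0.0203) and 1.10 by voom on recovered reads (adjusted p = 0.0242). The call was lost without a filter on low genes (adjusted p = 0.0605). It was also lost when knockout library 1, 2 or 3 or control library 2 was left out (adjusted p = 0.0793, 0.150, 0.0687 and 0.110), while the log2 difference stayed between 0.65 and 0.80.

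Tfrc, the receptor for iron-loaded transferrin, stood at 24.5, 24.4 and 35.8 FPKM in the knockout and at 37.4, 54.1 and 23.2 in the control. Control library 3 was the lowest of all 6 libraries, so the groups overlapped. The log2 difference was -0.37 (95% interval -1.09 to 0.35, adjusted p = 0.468). Slc11a2, also called DMT1, which passes ferrous iron from the endosome to the cytosol, also overlapped between the groups. Its level was 43.6, 43.0 and 39.6 FPKM in the knockout and 28.3, 34.4 and 52.3 in the control, where control library 3 was the highest of all. The log2 difference was 0.17 (95% interval -0.34 to 0.69, adjusted p = 0.637). Slc11a1, also called NRAMP1, which pumps metal ions out of the phagosome and withholds them from engulfed microbes, was the third most abundant member. It stood at 132, 117 and 162 FPKM in the knockout and at 156, 152 and 243 in the control. Knockout library 3 lay above control libraries 1 and 2, and the log2 difference was -0.40 (95% interval -0.91 to 0.12, adjusted p = 0.284). It was -0.18 without control library 3 (adjusted p = 0.493).

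Slc40a1, ferroportin and the only known exporter of iron from cells, was the least abundant member in the knockout, whereas in the control the mean of Steap3 was lower (2.20 against 2.99 FPKM). It stood at 0.30, 0.18 and 0.48 FPKM (44, 27 and 69 reads) in the knockout and at 0.91, 3.70 and 4.37 FPKM (125, 503 and 551 reads) in the control. All knockout libraries lay below all control libraries, and control library 1 was closer to the knockout libraries than to the other controls. Slc40a1 entered the test only through the control group, whose mean of 2.99 FPKM was above the filter of 1, while the knockout mean was 0.32. The log2 difference of log2(FPKM + 1) was -1.47 (SE 0.371, 95% interval -2.34 to -0.60), a scale that understates the change of so low a gene, and the unadjusted p of 0.0051 became an adjusted p of 0.0572. It passed the threshold in the paired fit (adjusted p = 0.0390), with a pseudocount of 0.1 (log2 difference -2.67, adjusted p = 0.0405) and without control library 1 (log2 difference -1.93, adjusted p = 0.0079). It did not pass after rescaling (-1.39, adjusted p = 0.0550) or by voom (-2.89, adjusted p = 0.0796), and its adjusted p reached 0.207 without knockout library 2.

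Set against uptake within a library, log2(FPKM + 1) of Slc40a1 minus that of Tfrc was -4.45 ± 0.17 (SD, n = 3) in the knockout and -3.35 ± 1.09 (SD, n = 3) in the control. The difference of -1.10 was about as large as the SD of the control group (exact two-sided permutation test, p = 0.2, and 0.4 for both ratios after Benjamini-Hochberg adjustment over the 2 ratios). Paired by number, the knockout was lower in 2 of 3 pairs (exact permutation p = 0.5). The difference was -0.51 without control library 3, -1.59 without control library 1 and -2.30 with a pseudocount of 0.1. Control library 1, at -4.33, lay within the range of the knockout.

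Hp encodes haptoglobin, an acute phase protein that binds free haemoglobin for clearance. It stood at 64.7, 52.6 and 87.5 FPKM in the knockout and at 153, 102 and 44.1 in the control. Control library 3 was the lowest and control library 1 the highest of all 6 libraries. The log2 difference was -0.40 with a 95% interval of -1.41 to 0.61 (adjusted p = 0.578), the widest of the 9 genes.

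The overlap in Tfrc, Slc11a2 and Hp rested on control library 3, the control library with the least Timd4. Without it the log2 difference of Tfrc was -0.68 (adjusted p = 0.0952), that of Slc11a2 was 0.42 (adjusted p = 0.0854) and that of Hp was -0.90 (adjusted p = 0.0616), all still short of the threshold. Leaving out another control library moved them the other way, Tfrc to -0.083 without control library 2 (adjusted p = 0.887), and Hp to -0.007 and Slc11a2 to -0.014 without control library 1 (adjusted p = 0.992 and 0.969). Hp and Slc11a2 ran opposite to each other over the 6 libraries (Pearson r = -0.97, given as a description since the libraries fall into 2 groups).

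**Figure D2:**
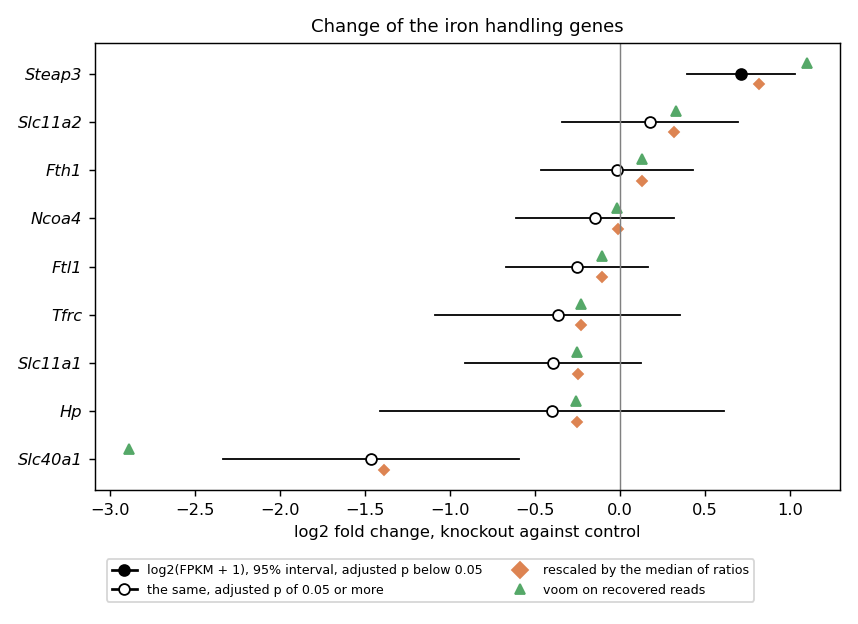
Log2 difference, knockout minus control, of each iron handling gene with its 95% interval (circles and lines, filled where the adjusted p was below 0.05), after rescaling by the median of ratios (diamonds) and by voom on recovered reads (triangles). Steap3, at 0.71, is the filled point, Slc40a1 lies lowest at -1.47, and the intervals of the other 7 cross 0.

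In all, 1 of the 9 genes (11.1%) passed the threshold, against 7.31% of all genes tested. An unadjusted limma p below 0.05 was reached by 2 of the 9 and by 2494 of all 9030 genes tested. In the paired fit the count was 2 of 9, Steap3 (adjusted p = 0.0398) and Slc40a1, against 9.47% of all genes. Since Slc40a1 passed the filter only through the control group, where it was high, this count supports nothing about the 9. The groups did not overlap in 2 of the 9 (22.2%), against 34.1% of all genes. The median log2 difference of the 9 was -0.26 and that of all genes -0.11, with 7 members below 0 and 2 above. Of all 9030 genes tested, 5733 were below 0 and 3297 above. Rescaling moved the differences of the other genes to -0.11 for Ftl1, -0.015 for Ncoa4, -0.23 for Tfrc, 0.32 for Slc11a2, -0.25 for Slc11a1 and -0.26 for Hp, and none of these passed the threshold. The intervals of the 7 overlapping genes held 0, and they were too wide to show that these genes did not differ.

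The members differed widely in level per length. Averaged over the 6 libraries, Fth1 came first at 26554 FPKM and Ftl1 second at 8345, 3.18-fold lower, and the ranges of these did not overlap. Slc11a1 followed at 160 FPKM, Hp at 84.0, Slc11a2 at 40.2 and Tfrc at 33.2, and each of these overlapped with its neighbour in the order. Ncoa4, at 10.8 FPKM, and Steap3, at 3.22, were each separated from the gene above, and Steap3 overlapped with Slc40a1 at 1.66, a mean over groups that stood at 0.32 and 2.99. Fth1 RNA was thus 799-fold above that of Tfrc and 2468-fold above that of Ncoa4.

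The wider set of iron and haem genes held 70 symbols in 8 roles, the 9 members included. Of these, 66 were listed and 49 reached the filter, and Ftmt, Tfr2, Hjv and Tmprss6 were not analysed here. In the knockout, 4 of the 49 fell and 2 rose (12.2% in all, against 7.31% of all genes), and 15 of 49 did not overlap (30.6%, against 34.1%). The balance of directions did not hold. After rescaling 3 of the 49 fell and 4 rose (7.41% of all genes called), and by voom 3 fell and 3 rose (6.52%). Without the members, 5 of 40 passed (12.5%), of which 1 rose and 4 fell. The median log2 difference was -0.12 for the 49 and -0.11 for all genes.

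Of 6 tested genes of haem transport and breakdown, 2 fell and 4 did not pass (33.3% called, against 7.31% of all genes, from very few genes). Hmox1, haem oxygenase, which opens the haem ring and frees its iron, stood at 392, 328 and 717 FPKM in the knockout and at 1606, 1345 and 2039 in the control. The 2 groups were well apart, 3.47-fold lower in the knockout on average (log2 difference -1.86, SE 0.305, adjusted p = 0.0196). Slc48a1, which carries haem out of the phagolysosome, stood at 53.4, 47.8 and 101 FPKM in the knockout and at 207, 175 and 193 in the control (log2 difference -1.57, SE 0.273, adjusted p = 0.0217). Knockout library 3 was the highest knockout library for both genes. Blvrb, a biliverdin reductase that acts after haem oxygenase, ranged from 125 to 224 FPKM in the knockout and from 265 to 391 in the control, and its log2 difference of -0.93 did not pass the threshold (adjusted p = 0.0634) but did in the paired fit (adjusted p = 0.0217). Hmox2 lay apart in the other direction, from 46.5 to 52.1 FPKM in the knockout and from 24.4 to 40.3 in the control. Its log2 difference of 0.62 did not pass (adjusted p = 0.0895) but did without control library 1 (adjusted p = 0.0371). Blvra and Flvcr1 had log2 differences of 0.17 and 0.18 and did not pass.

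**Figure D3:**
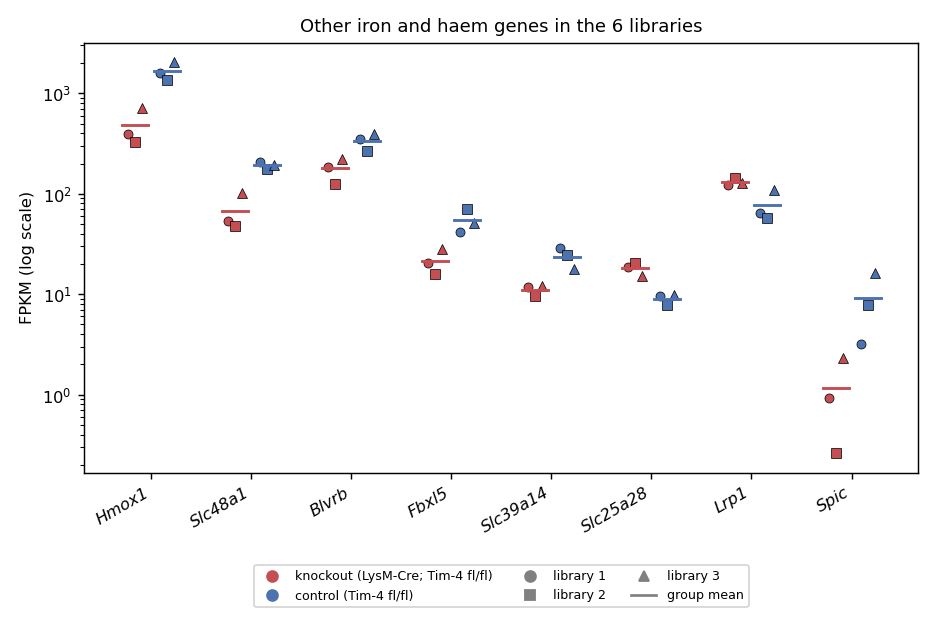
FPKM of 8 other iron and haem genes in each library on a log axis, knockout in red and control in blue, with the marker giving the library number and a bar for the group mean. The groups are apart for all 8, and Hmox1, Slc48a1, Fbxl5 and Slc39a14 (lower) and Slc25a28 (higher) passed the threshold, whereas Lrp1 and, added after their values were seen, Blvrb and Spic did not.

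Of 7 tested genes of uptake and metal transport, Steap3 rose and Slc39a14 fell (28.6% called, against 7.31%). Slc39a14, also called ZIP14, a transporter of zinc and of iron not bound to transferrin, stood at 11.9, 9.52 and 11.9 FPKM in the knockout and at 28.6, 24.6 and 17.9 in the control (log2 difference -1.01, SE 0.193, adjusted p = 0.0285). The call on Slc39a14 was lost after rescaling (adjusted p = 0.0650), by voom (adjusted p = 0.0677) and without a filter on low genes (adjusted p = 0.0518). Mcoln1, a lysosomal channel that lets iron out, was the most abundant uptake gene outside the 9 and had a log2 difference of 0.24 (adjusted p = 0.421).

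Of 7 tested sensors and regulators, 1 fell (14.3% called, against 7.31%). Fbxl5, a subunit of a ubiquitin ligase that is stable when iron is plentiful and removes iron regulatory protein 2, stood at 20.2, 15.99 and 28.5 FPKM in the knockout and at 41.4, 70.5 and 50.8 in the control (log2 difference -1.30, SE 0.260, adjusted p = 0.0326). Its call was lost without a filter on low genes (adjusted p = 0.0605). The genes of the iron regulatory proteins did not pass, Aco1 with a log2 difference of -0.02 (adjusted p = 0.938) and Ireb2 with -0.29 (adjusted p = 0.382). Nfe2l2, a transcription factor of the oxidative stress response and the most abundant gene of this role, had a log2 difference of -0.29 (adjusted p = 0.338).

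Of 12 tested genes of mitochondrial iron and iron-sulphur clusters, 1 rose (8.33% called, against 7.31%). Slc25a28, mitoferrin 2, which imports iron into mitochondria, stood at 18.7, 20.2 and 15.3 FPKM in the knockout and at 9.63, 7.74 and 9.76 in the control (log2 difference 0.92, SE 0.155, adjusted p = 0.0204). Its partner Slc25a37, mitoferrin 1, the most abundant gene of this role, had a log2 difference of -0.17 (adjusted p = 0.650), and whether the 2 mitoferrins differ in their change was not tested. None of 5 tested genes passed for storage (Pcbp1, an iron chaperone for ferritin, -0.16, adjusted p = 0.625), none of 6 for haem synthesis (Alas1, its first enzyme, -0.45, adjusted p = 0.379), none of 4 for carriers and their receptors (Lrp1, a receptor for haem bound to haemopexin, 0.82, adjusted p = 0.0819) and none of 2 for export (Cp, a copper oxidase, 0.40, adjusted p = 0.498). Lrp1 passed after rescaling (0.97, adjusted p = 0.0483) but not by voom (adjusted p = 0.0534). Urod, a gene of haem synthesis, passed after rescaling (0.60, adjusted p = 0.0228) and by voom (0.67, adjusted p = 0.0311). Alas1 passed without control library 3 (-0.79, adjusted p = 0.0367), and without control library 1 it was at -0.13 (adjusted p = 0.723).

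**Figure D4:**
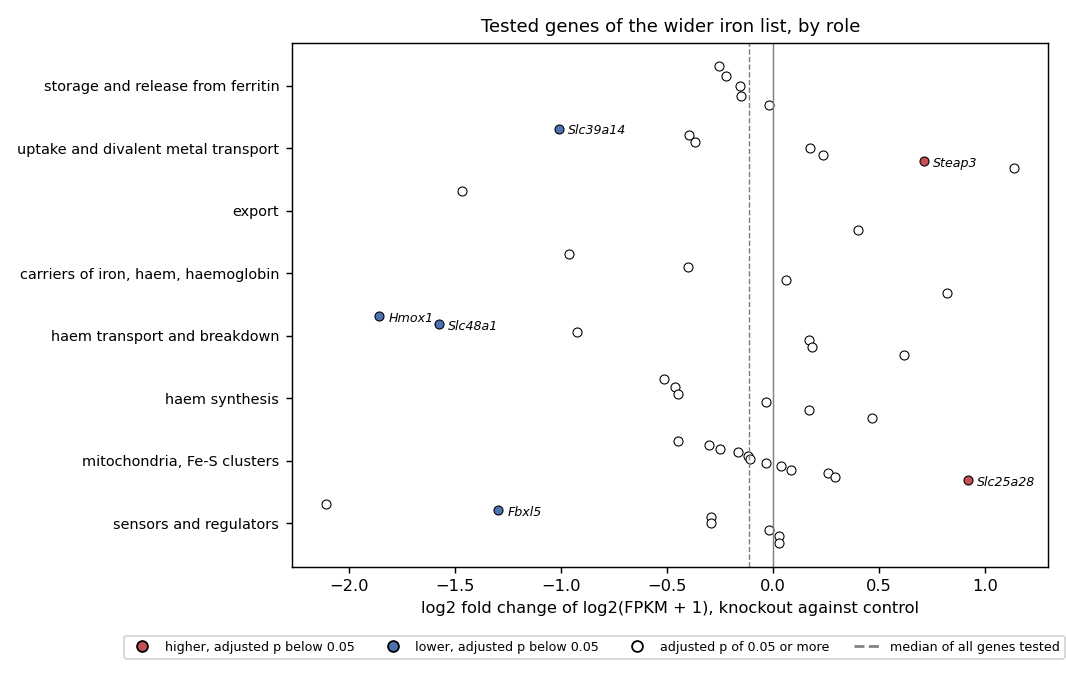
Log2 difference, knockout minus control, of the 49 tested iron and haem genes by role, red where higher and blue where lower at an adjusted p below 0.05 and open otherwise, with a dashed line at the median of all genes tested (-0.11). The called genes are Hmox1, Slc48a1, Fbxl5 and Slc39a14 to the left and Steap3 and Slc25a28 to the right, spread over 4 roles.

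These calls depended on single libraries. Of the 6 called genes, none passed without knockout library 1, without knockout library 2 or without control library 2, when the calls over all genes fell to 30, 63 and 8 in limma. Without knockout library 3, Steap3 and Slc39a14 lost the call and the other 4 kept it. All 6 passed when either control library 1 or control library 3 was left out. Among the controls, Timd4 was highest in control library 1 and lowest in control library 3. The direction of each of the 6 genes and of Slc40a1 was the same in every such fit. Slc40a1 passed the filter only through the control group, where it was high, so its constant direction is a description and no support.

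**Figure D5:**
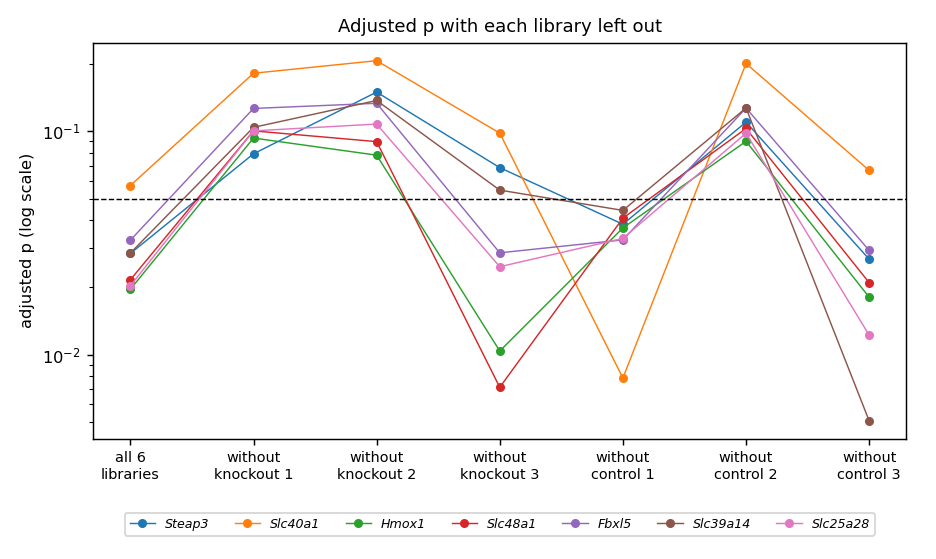
Adjusted p from limma on a log axis for the 6 called iron and haem genes and Slc40a1, with all 6 libraries and with each library left out, the dashed line marking 0.05. Lines only join the points of 1 gene. Slc40a1 is below the line only without control library 1, at 0.0079, and every gene is above it without knockout library 1, knockout library 2 or control library 2.

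Markers of other cells moved with the groups. Many of them passed the filter only through the control group, where they were high, among them all tested mast cell genes, the B cell genes Cd79b, Ms4a1 and Pax5, Icam2, Alox15, Camp and the alpha globin genes Hba-a1 and Hba-a2, so counts of lower markers are a description of the listed values and no test of a direction. Summed over the list, B cell markers lay between 2.78 and 5.52 FPKM in the knockout and between 27.5 and 115 in the control, with 5 of 5 tested genes lower. Mast cell markers lay between 1.89 and 2.27 FPKM in the knockout and between 38.2 and 49.3 in the control, with 5 of 5 lower. Erythroid markers, of which haemoglobin RNA made up nearly all, lay between 3.95 and 12.4 FPKM in the knockout and between 12.7 and 26.7 in the control, with 2 of 3 lower, while Alas2 was at most at 0.192 FPKM in every library and listed at 0 in knockout library 2. Neutrophil markers lay between 71.2 and 201 FPKM in the knockout and between 195 and 459 in the control, with 2 of 5 lower and Ngp listed at 0 in all controls. Among markers of large peritoneal macrophages, Cd9 lay between 256 and 477 FPKM, Prg4 between 2.33 and 3.98 in the knockout and between 30.07 and 114 in the control, and 3 of 6 tested (Icam2, Prg4 and Alox15) were called lower. Over the list the sum lay between 383 and 484 FPKM in the knockout and between 375 and 507 in the control. Cd9 made up most of this sum in every library, so it does not show the level of the other markers of the list. Monocyte markers lay between 28.4 and 90.2 FPKM in the knockout and between 34.8 and 68.4 in the control, with 1 of 4 lower. Mesothelial and fibroblast markers lay between 11.2 and 29.3 FPKM in the knockout and between 2.06 and 11.8 in the control, with 0 of 3 called in limma (2 at an unadjusted p below 0.05). T cell markers summed to at most 1.545 FPKM, and none reached the filter. Ly6g, Ighm and Trac were not analysed here. Of 8 macrophage markers 1 rose (Fcgr1), and their sum lay between 2398 and 7102 FPKM in the knockout and between 8905 and 10706 in the control, a difference carried by Lyz2. The part of these cells in the values of the iron genes was not tested, and in bulk RNA fewer cells of a type and less RNA per cell cannot be told apart.

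The genes whose log2(FPKM + 1) ran most like each member over the 6 libraries were found by Pearson r, a description over few points that share their groups. Slc40a1 ran with Impact (r = 0.9997) and Kdm6a (0.9987), and 16 genes had an r above 0.99 with it. Steap3 ran with Siae (0.9961), a sialic acid esterase, and with Ctsl (0.9865), the lysosomal protease cathepsin L, and both rose in the knockout by 0.85 (adjusted p = 0.0263) and 1.40 (adjusted p = 0.0113) on the log2 scale. For the storage genes the nearest were Elovl1 (0.9815) and 2310039H08Rik (0.9748) to Fth1, Pip4k2b (0.9963) and Cbr1 (0.9953) to Ftl1, and Abhd11 (0.9843) and Mcm7 (0.984) to Ncoa4. For transport they were Atp5pb (0.9862) and Dnajb11 (0.9787) to Tfrc, Krt8 (0.9958) and Zfyve26 (0.9924) to Slc11a2, and Dnajb12 (0.9983) and Tbp (0.9955) to Slc11a1. Hp ran with Igf1 (0.9865) and Gm9895 (0.9829). Of all these genes, Siae and Ctsl were the ones past the threshold.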

How the data were processed

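Total RNA of PEMs was sequenced in 6 libraries, grouped by title. The FPKM values per library were deposited by the authors, and the deposited signal columns hold, per the file headers, a mean of counts for each group after scaling by DESeq2 size factors. Deposited columns with a p-value, a q-value, a fold change (ratio) and a log2 fold change hold the authors' own comparison and were not used. The submitters' processing notes name mm9, so coordinates are given for the printed GRCm38 sequences only. The aligner, the counting and the annotation are not given in the sources used here. No per-sample column was left unused (0).

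Genes with a mean of at least 1 FPKM in either group entered a limma fit (version 3.58.1 with R 4.3.3, lmFit then eBayes, trend on) of log2(FPKM + 1). Benjamini-Hochberg adjustment covered all genes tested, and the threshold was 0.05. Solving the group means for the FPKM columns gave back whole reads (100% of values whole within 0.001). The members and lists were chosen with earlier results of these data known. Named were the members, Timd4, Lyz2, each called gene and the most abundant non-member of each role, the 2 genes most like each member and listed ferritin copies. Others were named after their values were seen. The transcript search was added later, and protein sequences were not used here.

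Deviations from the group mean correlated at 0.109, 0.109 and 0.304 for libraries of the same number, and between -0.332 and 0.291 otherwise. These ranges overlapped, so the check does not show that the libraries are paired, and the labels state no pairing. The paired fits and paired ratios therefore rest on pairing by number as an assumption. On simulated reads with 200 genes changed 4-fold, 200 of the 200 tested were called and 14 unchanged genes were called, among 8993 in the fit. The simulation gave all genes the same dispersion and held no library that stood apart. It therefore checks the code and cannot show how many changes of this size the fit misses in the real libraries. Alternatives were no filter, at least 10 reads in every library, a pseudocount of 0.1, rescaling, voom, the replicate block, other thresholds and each library left out.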

Additional observations from a re-analysis of the deposited data

How the results depend on the processing

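Of 192 values of single genes under alternatives, 153 kept their direction and their side of the threshold, 25 lost the call, 7 gained one and 7 changed sign. The changes of sign concerned genes near 0: Fth1 was 0.13 after rescaling and 0.13 by voom and lay between -0.19 and 0.12 with 1 library left out, Slc11a2 between -0.014 and 0.42, and Ncoa4 between -0.34 and 0.031.

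Members past the threshold numbered 0 without a filter (limma, with 2.89% of all genes called). There 2 members stood at an unadjusted p below 0.05, as did 3626 of all 15415 genes. Members numbered 1 by voom (6.52% of all genes), 2 with a pseudocount of 0.1 (7.66%) and 2 with the replicate block (9.47%). They numbered 2 at an adjusted p below 0.1 (15.7%) and 0 with a log2 difference of at least 1 required (3.83%). With 1 library left out they numbered between 0 and 2 (0.0888% to 14.8% of all genes). Iron and haem genes numbered 3 of 66 without a filter (Hmox1, Slc48a1 and Slc25a28, with 2.89% of all genes called) and 10 of 49 with the replicate block (9.47%). They numbered 0 without knockout library 1, knockout library 2 or control library 2 (0.33%, 0.699% and 0.0888% of all genes). Without control library 3 they numbered 11 of 49 (14.8% of all genes). All genes numbered 1421 at an adjusted p below 0.1, 346 with a log2 difference of at least 1 and between 8 and 1333 with 1 library left out. The Slc40a1 to Tfrc difference was -2.30 with a pseudocount of 0.1. The cause of these shifts was not tested. In the paired fit with the replicate block, Slc40a1, Timd4, Blvrb, Spic and Steap4 gained a call, of which Slc40a1, Timd4 and Steap4 passed the filter only through the group where they were higher, and no other call changed among the iron and haem genes, Timd4 and Lyz2.

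Slc40a1 rested on 27 to 69 reads in the knockout, which limits how well the size of its difference is known.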

Other observations

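Some iron genes that the comparisons do not turn on also lay apart, stood near or below the filter or, for Trf, depended on 1 library. They were named after their values were seen. Spic, a transcription factor of iron-recycling macrophages, stood at 0.92, 0.26 and 2.32 FPKM in the knockout and at 3.20, 7.85 and 16.3 in the control, with no overlap (log2 difference -2.11, limma adjusted p = 0.0590, and 0.0217 with the replicate block). Steap4, a metalloreductase induced in inflammation, stood at 1.21, 2.89 and 0.77 FPKM in the knockout and at 0.048, 0.098 and 0.24 in the control (log2 difference 1.14, adjusted p = 0.0529). Trf, transferrin, stood at 21.4 to 26.5 FPKM in the knockout and at 105, 70.7 and 13.8 in the control, where control library 3 was the lowest of all libraries (log2 difference -0.96, adjusted p = 0.375). Without that library Trf passed the threshold (log2 difference -1.81, adjusted p = 0.0029), and without control library 1 it was at -0.39 (adjusted p = 0.667). Hamp, which encodes hepcidin, the peptide that removes ferroportin, was below the filter, at 1.23, 1.05 and 0.12 FPKM in the knockout and at most at 0.136 in the control. Cd163, the receptor for haptoglobin bound to haemoglobin, was below the filter too, at 0.26 FPKM or less in the knockout and 0.30 or more in the control.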
